A study of Mus musculus with 7 samples.

Results

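The genes that encode the proteins of the cytoplasmic ribosome were examined for binding of CTCF and of the cohesin subunit Rad21 at their promoters. Members were all autosomal protein-coding genes of the GENCODE vM1 annotation of mouse genome build mm9 (NCBIM37) with a symbol of the Rpl or Rps series, together with Rplp0, Rplp1, Rplp2 and Rpsa. Pseudogenes and the Rps6k kinases were left out. The rule found 79 genes of 21410 autosomal protein-coding genes, 47 for the large and 32 for the small ribosomal subunit. These 79 genes had 168 distinct transcription starts. A further 4 genes that match the symbol rule are on chromosome X and were not analysed here.

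The data are from ChIP-seq of male CD-1 mouse liver at an age of 8 weeks, with 4 libraries for CTCF and 3 for Rad21, collected to find the CTCF sites at the ends of chromatin domains and loops. In ChIP-seq, crosslinked and sheared chromatin is pulled down with an antibody and sequenced, and fragments heap up in a peak where the protein was bound, with the highest point as its summit. The pooled lists hold 76683 CTCF peaks and 67369 Rad21 peaks, and a further list assigns 52436 of the CTCF peaks to 4 classes. Each list pools the libraries of its factor and whole liver holds several cell types, so no spread between mice and no cell type can be given for any value. The labelled tissue was not checked against RNA markers, since the lists hold no RNA values.

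Ribosomal proteins, which are made in matched amounts, surround the ribosomal RNA of the large and the small subunit. Their genes are among the most actively transcribed in most cells, have compact promoters, and give messages that begin with a run of pyrimidines, the TOP tract, through which their translation responds to nutrients. CTCF is a zinc finger protein that binds a long, directional DNA motif, and cohesin is a ring-shaped complex that is held at CTCF sites when loops of chromatin form. Both proteins are also found at many active promoters.

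The sequences under the strongest CTCF summits of members are shown first, since the results on strength, position and motif turn on these sites. All are from mm9 in the direction of transcription of the ribosomal protein gene, and none includes an exon. Capitals mark the 19 bases with the best match to a CTCF weight matrix that was learnt from anchors of topologically associating domains (TADs), large stretches of chromosome whose chromatin contacts itself more than its surroundings. In the first 4 sites, among the strongest with a match above the threshold of 9.18 bits, the capitals hold the motif in the same orientation as the gene.
Rplp0: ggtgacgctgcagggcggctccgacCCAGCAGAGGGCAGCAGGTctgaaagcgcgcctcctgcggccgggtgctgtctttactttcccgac
Rps3a: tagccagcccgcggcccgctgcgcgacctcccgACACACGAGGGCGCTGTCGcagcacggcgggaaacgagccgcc
Rpl36: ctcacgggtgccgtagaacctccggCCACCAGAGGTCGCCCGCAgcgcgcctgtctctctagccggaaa
Rpl26: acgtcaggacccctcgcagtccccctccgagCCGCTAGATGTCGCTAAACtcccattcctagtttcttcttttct
The Rplp0 stretch is chr5:116009274-116009364 on the plus strand, and its match of 19.2 bits lies 177 to 159 bp upstream of the nearest start. The Rps3a stretch is chr3:85946625-85946700 on the minus strand, with a match of 12.4 bits at 43 to 25 bp upstream. The Rpl36 stretch is chr17:56752726-56752794 on the plus strand, with a match of 15.8 bits at 67 to 49 bp upstream. The Rpl26 stretch is chr11:68714936-68715010 on the plus strand, with a match of 13.4 bits at 118 to 100 bp upstream.

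Genes whose strongest CTCF peak had no match above the threshold are represented, for contrast, by the 4 with the most fragments, with Rps14 left out, with the best-scoring 19 bases in capitals.
Rpl10a: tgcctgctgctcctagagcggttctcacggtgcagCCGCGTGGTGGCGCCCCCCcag
Rpl11: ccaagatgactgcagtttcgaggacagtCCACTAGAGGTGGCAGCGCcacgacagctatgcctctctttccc
Rpl37: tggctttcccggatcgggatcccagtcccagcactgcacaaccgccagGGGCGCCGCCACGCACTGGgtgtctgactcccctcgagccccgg
Rps20: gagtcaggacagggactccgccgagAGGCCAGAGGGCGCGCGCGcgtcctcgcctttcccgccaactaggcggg
They are chr17:28465359-28465415 on the plus strand for Rpl10a, chr4:135609365-135609436 on the minus strand for Rpl11, chr15:5066289-5066380 on the plus strand for Rpl37 and chr4:3762865-3762938 on the minus strand for Rps20. Their best scores were 7.78 bits at Rpl10a, 7.41 bits at Rpl11, 5.52 bits at Rpl37 and 3.43 bits at Rps20. The motif listing of the authors, made with another matrix and over the whole peak, does hold a motif at the Rpl10a, Rpl11 and Rpl37 sites, and holds none at the Rps20 site. The Rps14 site, with 715 fragments and not printed, had a best score of 0.041 bits and no motif in the listing of the authors.

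CTCF was present at most ribosomal protein promoters. A CTCF summit lay within 1 kb of a start in 67 of 79 genes, a share of 84.8% (95% Wilson interval 75.3% to 91.1%), beside 55.0% of all autosomal protein-coding genes. A Rad21 summit lay within 1 kb in 66 of 79 genes, or 83.5% (73.9% to 90.1%), beside 52.5% of all genes. Both factors were found at 65 members, 82.3% (72.4% to 89.1%), beside 50.2% of all genes. Shares were alike in both subunits, with CTCF at 40 of 47 large and 27 of 32 small subunit genes and Rad21 at 41 and 25. Intervals cover counting error only, and no test was made across genes, which are not replicates.

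These shares were close to those of other genes with CpG-rich starts, the class of promoters with many CpG dinucleotides that most housekeeping genes have. Among the 9300 autosomal genes with a CpG-rich start, 85.4% had CTCF and 81.8% had Rad21. Of the members, 59 of 79 had such a start (74.7%, 64.1% to 83.0%), beside 43.4% of all genes. Within that class CTCF was present at 49 of 59 members (83.1%, 71.5% to 90.5%) and Rad21 at 47 (79.7%, 67.7% to 88.0%). The 20 members whose start was not CpG-rich had CTCF in 18 cases (90%, 69.9% to 97.2%) and Rad21 in 19 (95%, 76.4% to 99.1%). Among all 12110 genes of that kind, 31.6% had CTCF and 29.9% had Rad21, and whether those genes are transcribed in liver was not measured here. Some of the 20 members just missed the limit, such as Rpl27 with a CpG ratio of 0.592, and others were far below, such as Rps2 with 0.148. The groups were not matched for CpG content.

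Other housekeeping groups also had CTCF and Rad21 at most promoters. The 76 mitochondrial ribosomal protein genes had CTCF at 69 promoters (90.8%, 82.2% to 95.5%) and Rad21 at 69. The 40 proteasome subunit genes had CTCF at 37 (92.5%, 80.1% to 97.4%) and Rad21 at 36. Among 18 other genes of the translation machinery, such as elongation factors, CTCF was present at 13 (72.2%, 49.1% to 87.5%) and Rad21 at 16. All of these intervals overlap those of the ribosomal protein genes, and differences between the groups were not tested.

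**Figure D1:**
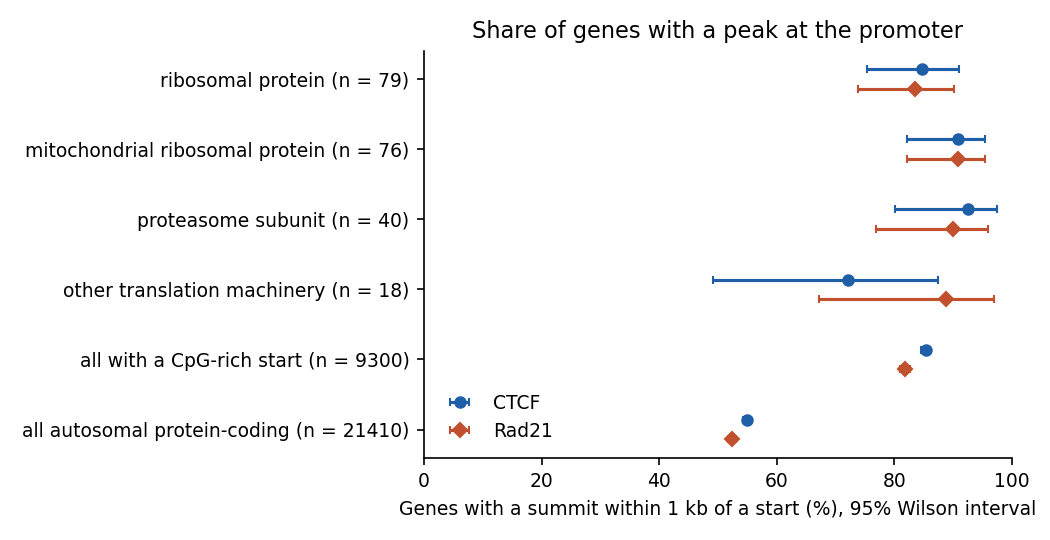
Share of genes with a CTCF summit (blue circles) or a Rad21 summit (orange diamonds) within 1 kb of a start, in percent, for 6 groups of genes. Bars are 95% Wilson intervals. Ribosomal protein genes are at 84.8% and 83.5%, close to all genes with a CpG-rich start (85.4% and 81.8%) and to the right of all autosomal protein-coding genes (55.0% and 52.5%).

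The strength of CTCF differed widely among members. The number of fragments at the strongest CTCF summit, summed over the pooled libraries, ran from 36 to 1755 in the 67 genes, a range of 48.8-fold, with quartiles of 56.5, 113 and 325. It was at least 300 at 18 members, between 100 and 299 at 18 and below 100 at 31. Over all 11771 genes with CTCF the quartiles were 58, 99 and 212. The median over all genes was exceeded by 36 of 67 members (53.7%, 41.9% to 65.1%), beside 49.5% of all genes, a share inside that interval.

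The upper end was more heavily filled. The strongest 10% of all genes with CTCF, a cut chosen after the values were seen, began at 539 fragments. In it were 15 of 67 members (22.4%, 14.1% to 33.7%), beside 10% of all genes. With strength taken from the deposited fold instead, the ratio of the fragments to the local background, 11 of 67 were in the strongest 10% (16.4%, 9.42% to 27.1%), an interval that holds the share over all genes. Of the members in the strongest 10%, 11 are among the 40 large subunit genes with CTCF (27.5%) and 4 among the 27 small subunit genes (14.8%).

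The strongest CTCF site of the members was at Rplp0, which encodes the base of the stalk on the large subunit that recruits elongation factors (chr5:116009476-116013736). Its CTCF summit had 1755 fragments over a local background of 62.9, 137 bp upstream of the nearest start. Rps3a, a small subunit gene, followed with 1740 fragments at 51 bp upstream. Each of these values was more than 10 times the median over the members with CTCF.

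A next group held large subunit genes in the main. Rpl10a had 1112 fragments at 32 bp upstream, Rpl36 had 869 at 59 bp upstream and Rpl26 had 851 at 124 bp upstream. Rpl13a, whose product also takes part in translational silencing of inflammatory messages, had 831 at 95 bp upstream. Rpl11, whose product can bind and restrain the ubiquitin ligase Mdm2, had 737 at 103 bp upstream. Rpl38, known for its part in translation of Hox messages, had 725 at 60 bp upstream and a further CTCF peak of 496 at 503 bp downstream. The small subunit gene Rps14 had 715 at 109 bp upstream.

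Rad21 at ribosomal protein promoters was more often below the median over all promoters. The strongest Rad21 summit of the 66 members had a median of 49.5 fragments, with quartiles of 41 and 75.8 and a range of 26 to 395, while the median over all 11234 genes with Rad21 was 62, with quartiles of 42 and 95. That median was exceeded by 24 of 66 members (36.4%, 25.8% to 48.4%), beside 49.3% of all genes. With summits within 500 bp of a start it was 39.1% (28.1% to 51.3%), an interval that holds the share over all genes. The same share was 36.2% for mitochondrial ribosomal protein genes (25.9% to 48.0%) and 33.3% for proteasome genes (20.2% to 49.7%).

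Among the highest Rad21 values were those at Rpl13a with 395 fragments, Rpl11 with 266 and Rpl10a with 158. Rpl36 had 121, Rpl27 had 115, Rpl9 had 110, Rps19 had 109, Rpl38 had 106 and Rplp0 had 104. Rpl7l1 had 103, and 55 of the 66 members were below 100 fragments. Of the genes named here, Rpl9 is the only one with weak CTCF, at 58 fragments. The local background at Rad21 summits was alike at members, with a median of 10.2 fragments, and at all promoters, with 10.1. At CTCF summits it was 15.2 at members and 12.4 at all promoters, and its part in the CTCF strengths was not tested.

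**Figure D2:**
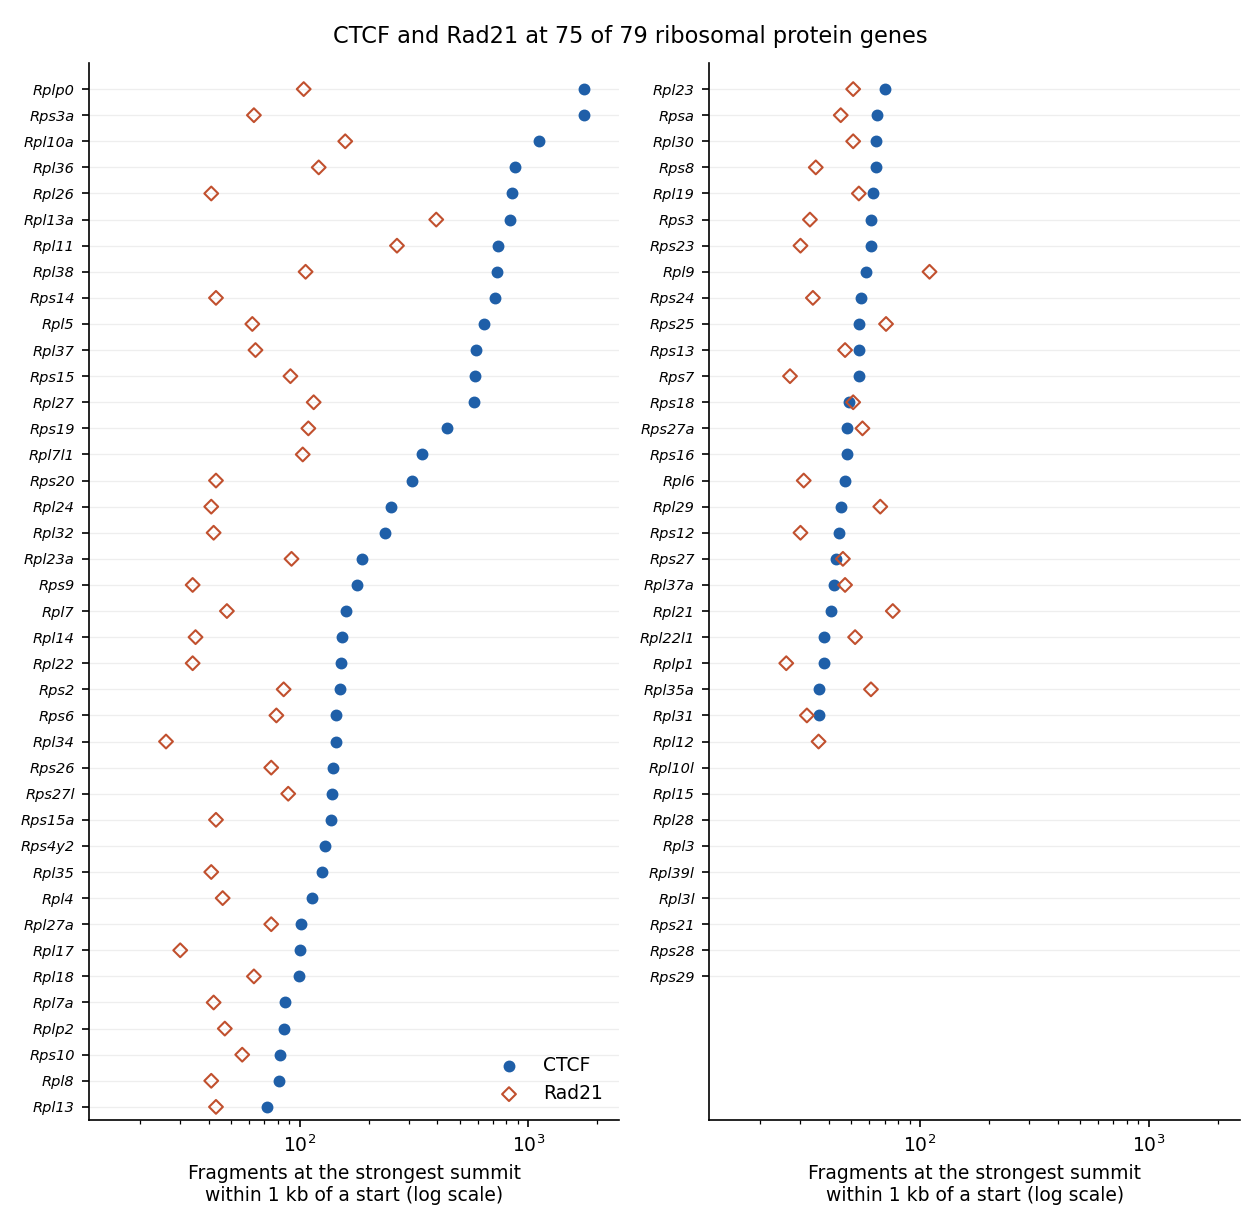
Fragments at the strongest CTCF summit (filled blue circles) and the strongest Rad21 summit (open orange diamonds) within 1 kb of a start, on a log scale, for 75 of the 79 members in order of CTCF. CTCF runs from 1755 at Rplp0 to 36 at Rpl31, while Rad21 stays between 26 and 395, and 9 genes at the end of the list have no peak of either factor.

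At strong CTCF peaks of members, Rad21 was low for the amount of CTCF beside all promoters. At 19 CTCF peaks of members with at least 300 fragments, a limit chosen after the values were seen, all 19 overlapped a Rad21 peak (100%, 83.2% to 100%), beside 99.2% of 2090 promoter peaks of that strength. The overlapping Rad21 peak had a median of 13.96 fragments per 100 CTCF fragments (quartiles 7.88 and 23.1). The median was 23.4 (13.96 and 39.3) over 2073 promoter peaks of that strength with Rad21, and 38.7 (23.9 and 58.8) over 9804 peaks away from promoters. Of the 19 peaks, 14 were below the promoter median. Member peaks of this set had more CTCF, with a median of 715 fragments beside 566 at promoter peaks of that strength. From 500 fragments, where members had 737 beside 808.5, the median ratio was 10.9 beside 19.2. The summit of an overlapping Rad21 peak can lie elsewhere, and was 671 bp away at Rpl5 but 3 bp away at Rps3a. Mitochondrial ribosomal protein genes were similar at strongest sites with the learnt CTCF motif, with medians of 550 CTCF fragments and, where a Rad21 peak overlapped, 76 Rad21 fragments, beside 580 and 79 at members and 265 and 93 over all genes. The factors differ in their number of libraries and the lists do not give the depth of each, so the ratio compares groups of sites and is no ratio of molecules.

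Some of the strongest sites had low ratios. Rps3a had 63 Rad21 fragments beside 1740 of CTCF, or 3.62 per 100, with summits 3 bp apart. Rpl26 had 41 beside 851, or 4.82 per 100. Rplp0 had 104 beside 1755, or 5.93 per 100, with summits 9 bp apart. A lower ratio than that of Rps3a was found at 0.772% of the strong promoter peaks, than that of Rpl26 at 2.12% and than that of Rplp0 at 3.86%. Rpl10a and Rpl36, also among the strongest, were near the member median with 14.2 and 13.9 per 100. Over all promoters the ratio was lower where CTCF was stronger, with medians of 26.4 from 200 fragments and 19.2 from 500, and these percentiles compare sites of unequal strength.

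A few members had as much Rad21 as other strong sites. Rpl13a had 395 Rad21 fragments beside 831 of CTCF, or 47.5 per 100, and 81.9% of strong promoter peaks were lower. Rpl11 had 36.1 per 100 and Rpl7l1 had 30.1, and Rps19, with 24.8, was just above the promoter median. The Rpl13a site is also 1 of 4 whose summit was nearer to a start of another gene, here Flt3l. The others of that kind were at Rps25, Rpl7a and Rps27, near starts of Trappc4, Med22 and Rab13.

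**Figure D3:**
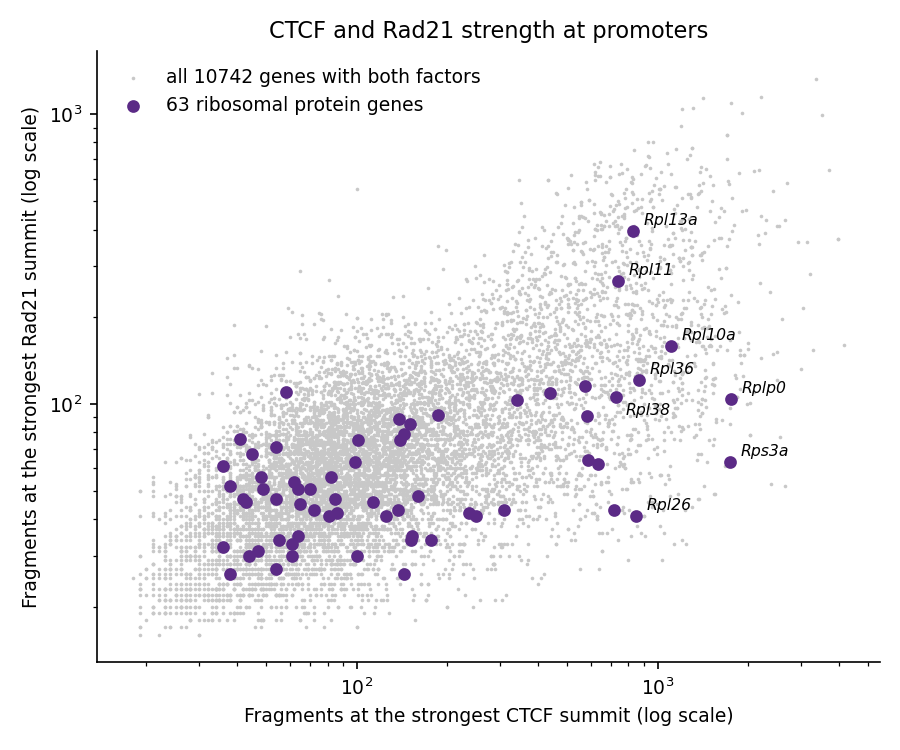
Fragments at the strongest Rad21 summit against fragments at the strongest CTCF summit within 1 kb of a start, both on log scales, for 10742 genes with both factors (grey) and 63 ribosomal protein genes among them (purple, with 8 of those strongest for CTCF named). Rplp0, Rps3a and Rpl26 lie at the lower edge of the cloud, while Rpl13a and Rpl11 lie inside it.

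**Figure D4:**
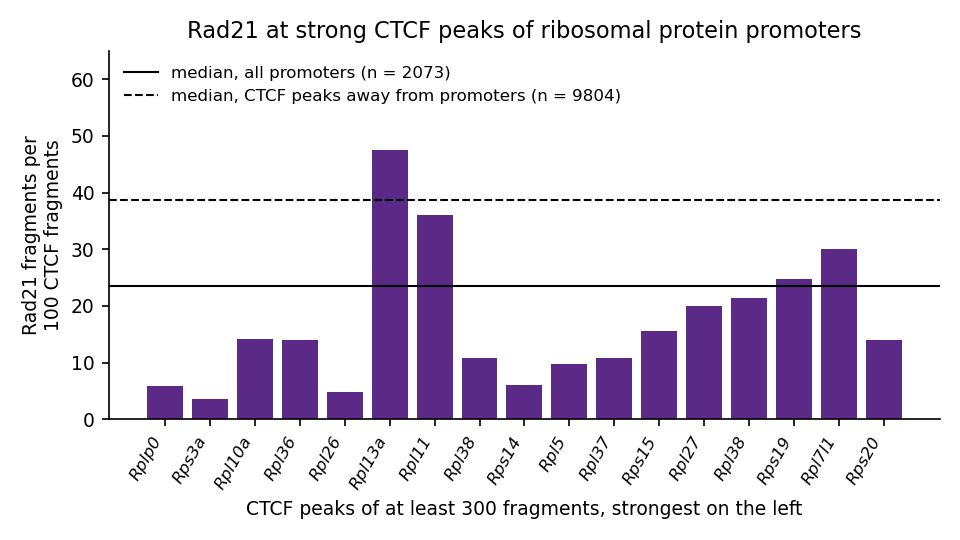
Rad21 fragments per 100 CTCF fragments (vertical axis) at 17 of the 19 CTCF peaks of members with at least 300 fragments, from the strongest on the left, with Rpl38 shown for each of its peaks. Lines are the medians over all promoter peaks (23.4, solid) and over CTCF peaks away from promoters (38.7, dashed). The bars of 13 peaks end below the solid line.

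Strong and weak CTCF sites were in different places. The cut between them, at the strongest 10%, was chosen after the values were seen. All 15 members in the strongest 10% had their summit upstream of the start (100%, 79.6% to 100%), beside 847 of the 1179 genes in that 10% (71.8%, 69.2% to 74.3%). Among the remaining 52 members, 18 had the summit upstream (34.6%, 23.2% to 48.2%), beside 39.1% of all remaining genes. In the 200 bp before the start, 18 members had a median of 720 fragments and reached 1755, while all 2683 genes with a summit there had a median of 132. From the start to 199 bp downstream, 21 members had a median of 64 fragments and reached 250, with a median of 85 over 4273 genes. Over all 67 members, 33 had the strongest CTCF summit upstream (49.3%, 37.7% to 60.9%), beside 42.4% of all genes.

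Rad21 summits lay mostly downstream. Of 66 members, 22 had the strongest Rad21 summit upstream (33.3%, 23.2% to 45.3%), beside 35.4% of all genes, with a median position of 112 bp downstream. A summit between 50 and 300 bp downstream was found at 35 of 66 members for Rad21 (53.0%) and at 25 of 67 for CTCF (37.3%), beside 44.7% and 35.2% of all genes. Rplp2 for CTCF, at 3 bp, and Rplp2 and Rpl7 for Rad21, at 40 and 39 bp, were among the summits closest to a start. The nearest starts at Rplp2 and Rpl7 are internal, downstream of the first annotated start. By the same rule the Rps2 summits of both factors, which lie in an intron, count as upstream. Introns held the strongest Rad21 summit in 37 of 66 members (56.1%, 44.1% to 67.4%) and the strongest CTCF summit in 24 of 67 (35.8%, 25.4% to 47.8%), beside 28.9% and 23.6% of all genes. A coding exon held it in 1 member for each factor, beside 17.97% and 16.4%.

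**Figure D5:**
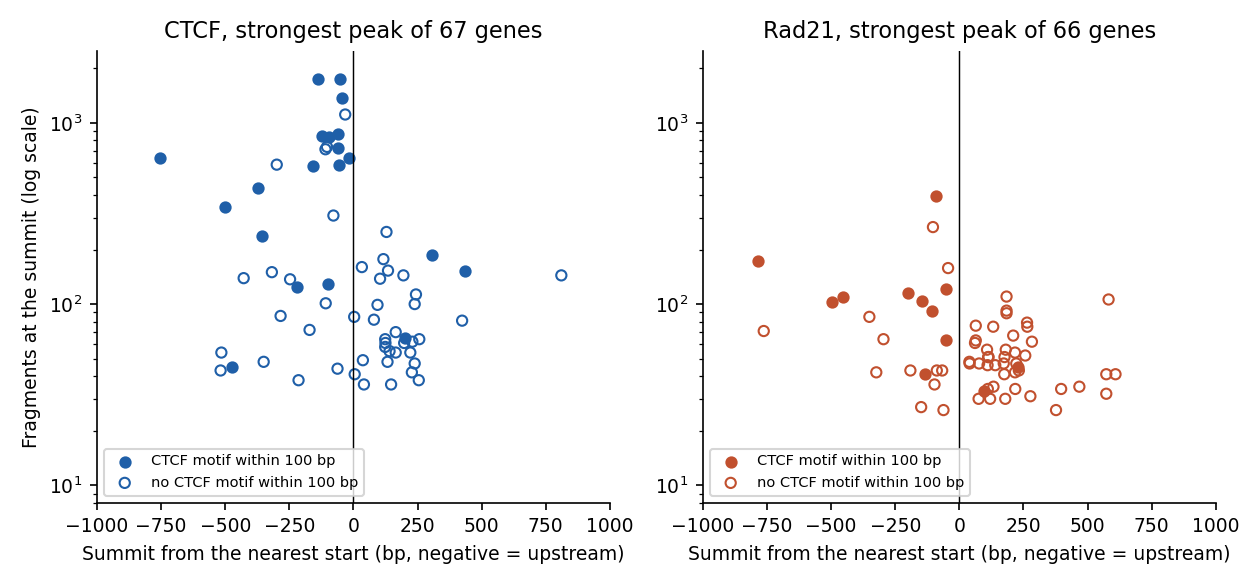
Fragments at the strongest summit (log scale) against its distance from the nearest start in bp, with negative values upstream, for CTCF at 67 members (left) and Rad21 at 66 members (right). Filled points have a match to the learnt CTCF motif within 100 bp and open points have none. The CTCF points above 539 fragments are all left of the start, and most open points lie right of it.

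Sites with a CTCF motif were the stronger ones. Within 100 bp of the strongest CTCF summit, 20 of 67 members had a match to the learnt motif (29.9%, 20.2% to 41.7%), beside 26.8% of 11771 genes. Those 20 sites had a median of 580 fragments, and 17 of them were upstream (85.0%, 63.96% to 94.8%), beside 59.2% of all motif sites (57.5% to 60.9%). The 47 sites without a match had a median of 72 fragments and 16 were upstream (34.0%), beside 36.2% of all genes without a match. Over all genes the medians were 265 and 83, and at mitochondrial ribosomal protein genes they were 550 and 78. Motif sites were upstream at 8 of 14 mitochondrial ribosomal protein genes (57.1%, 32.6% to 78.6%) and at 8 of 11 proteasome genes (72.7%, 43.4% to 90.3%). The motif had the same orientation as the gene at 14 of the 20 sites (70.0%, 48.1% to 85.5%), an interval that holds the 55.6% over all genes. In the strongest 10%, 11 of 15 members had a match (73.3%, 48.1% to 89.1%), and 73.8% of all genes in that 10% had one.

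By the deposited motif calls the picture was different. Of 70 member sites in the class list, 30 had a deposited motif (42.9%, 31.9% to 54.5%), beside 65.4% of 11202 class-list sites at promoters. With the learnt motif within 100 bp of the summit the same 70 sites had 20 (28.6%, 19.3% to 40.1%), beside 27.8%. The deposited motif comes from the whole peak, and member sites had a median width of 528 bp where all promoter sites had 620 bp. The part of width in the lower share was not tested.

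Most member sites belonged to the broad class of CTCF sites with cohesin. A pooled Rad21 peak overlapped 77 of 86 CTCF peaks at member promoters (89.5%, 81.3% to 94.4%), beside 84.7% of 14220 promoter peaks. When the summits had to be within 100 bp of each other, this was 52 of 86 (60.5%), beside 57.5%. The order turned with a reciprocal overlap of 50%, at 63.95% beside 67.7%, and with scores of at least 100 for both peaks, at 66.7% (55.2% to 76.5%) beside 78.2%. In the class list, 49 of 70 sites were other CAC sites, which hold cohesin and CTCF but anchor no predicted loop (70.0%, 58.5% to 79.5%), beside 73.6% of promoter sites. The list set 4 sites as TAD anchors, at the borders of megabase-scale domains, and 5 as intra-TAD anchors, of predicted loops within those domains. These are 5.71% (2.24% to 13.8%) and 7.14% (3.09% to 15.7%), beside 5.24% and 8.90% of promoter sites.

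TAD anchors were found at Rpl10a (1112 CTCF fragments), Rpl5 (636) and Rpl32 (237), and at each the deposited motif had the orientation of the gene. Rpl5 and Rpl11 products bind Mdm2 together, but the Rpl11 site was an other CAC site. At Rpl5 the CTCF summit was 16 bp upstream of a start and the overlapping Rad21 peak, with 62 fragments, had its summit 671 bp away. At Rpl32 the summits were 573 bp apart, with 42 Rad21 fragments.

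Intra-TAD anchors were found at Rpl26 (851 CTCF fragments), Rpl13a (831), Rpl27 (575) and Rps19 (439). The motif had the orientation of the gene at Rpl26, Rpl13a and Rps19 and the opposite one at Rpl27. Rps19, the gene most often mutated in Diamond-Blackfan anaemia, had its summit 374 bp upstream with 109 Rad21 fragments. The authors chose intra-TAD anchors with peak and motif scores, and TAD anchors by closeness to a TAD boundary among sites with a motif and a peak in every CTCF library. The peak scores were those of CTCF and of Rad21. Strength of both factors and motifs at intra-TAD anchors, and motifs at TAD anchors, therefore describe the list. The need for a peak in every CTCF library also bears on CTCF strength at TAD anchors.

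Lone CTCF sites, set without cohesin in the class list, made up 12 of 70 member sites (17.1%, 10.1% to 27.6%), beside 12.3% of promoter sites. They had a median of 48 fragments. The pooled Rad21 list used here had an overlapping peak at 9 of the 12, beside 544 of 1373 lone sites at all promoters (39.6%). The 9 were at Rpl6, Rpl13, Rpl19, Rpl34, Rpl35a, Rplp1, Rps18, Rps25 and Rps27a, with 35 to 68 CTCF fragments. The other 3 were at Rps15a with 137 fragments, Rps4y2 with 129 and Rpl18 with 69. At Rpl18 that peak was the CTCF summit farthest from its nearest start within the window, 916 bp downstream. That start is an internal one, well past the first annotated start of the gene. Just outside the window, Rpl29 had a CTCF summit of 36 fragments 1074 bp upstream.

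Public peak overlaps deposited in the class list were alike at members and at all promoters. The flag that stands for the cohesin subunit Stag2 was set at 64 of 70 sites (91.4%, 82.5% to 96.0%), beside 93.7%. The flag for Stag1 was set at 37 (52.9%, 41.3% to 64.1%), beside 60.8%, and that for the topoisomerase Top2b at 48 (68.6%, 57.0% to 78.2%), beside 70.8%. The columns carry no header, and the names Stag1 and Stag2 rest on their order in the description of the listing.

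Few members had only 1 factor. Rps16 (48 CTCF fragments) and Rps4y2 had CTCF alone, which is 2 of 79 (2.53%, 0.697% to 8.77%), beside 4.81% of all genes. Rps4y2 is a single-exon model on chromosome 6, and its nearest Rad21 summit was 1676 bp away. Rpl12 had Rad21 alone, with 36 fragments 97 bp upstream, 1 of 79 (1.27%, 0.224% to 6.83%), beside 2.30% of all genes. Its nearest CTCF summit was 4048 bp away. The nearest Rad21 summit just outside the window was at Rpl7, 1146 bp upstream with 144 fragments, a gene that also had a summit inside.

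Neither factor was found within 1 kb at 11 members (13.9%, 7.96% to 23.2%), beside 42.7% of all genes and 12.9% of genes with a CpG-rich start. Near peaks outside the window were at Rpl3l, whose closest CTCF summit was 2036 bp and closest Rad21 summit 3304 bp away, Rps28 (2511 and 2491 bp), Rpl3 (2576 and 2616 bp) and Rpl28 (2627 and 2629 bp). Others were Rps21, Rpl15, Rps29, Rpl39l and Rpl10l, named after their values were seen, with Rpl10l more than 500 kb from any peak, at 568965 bp. A CpG-rich start was present at 10 of the 11, beside 59 of 79 members (74.7%) and 43.4% of all genes. The learnt CTCF motif was in the 300-base promoter of 0 of the 11, beside 13 of 79 members (16.5%, 9.88% to 26.2%) and 11.1% of all genes. Since the 11 were picked for their lack of peaks and are few, this count cannot be read as a difference. No peak there means only that none was called in these lists.

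The 6 members whose symbol marks them as like another ribosomal protein gene, with an l after its name, split evenly. Rpl3l, which is known from muscle, and Rpl10l and Rpl39l, known from testis, had neither factor. Rpl7l1, Rpl22l1 and Rps27l had both, with CTCF of 342, 38 and 138 fragments. Without the 6, CTCF was present at 64 of 73 members (87.7%, 78.2% to 93.4%).

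Since ribosomal protein genes have many processed copies in the genome and only reads with a unique position were kept, the uniqueness of their sequence was measured. Of all 50-base words within 1 kb of the 5′-most start, from 78.96% to 100% occurred once in the genome, and 11 members were below 90%. The median was 95.4% at the 67 members with CTCF and 96.0% at the 12 without. Among the 11 members with neither factor it was lowest at Rps29, with 81.7%, and highest at Rpl39l, with 100%. Within 300 bp of the same start, on either side, Rps29 had 57.9%, the lowest value of all 79 members. The part of repeated words in the absence of peaks was not tested.

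No peak was shared by different members, and the 67 genes had 86 CTCF peaks in all, with 1 peak at 49 genes, 2 at 17 and 3 at Rpl18. Of the 66 genes with Rad21, 46 had 1 peak, 19 had 2 and Rpl24 had 3. More than 1 CTCF peak was thus found at 26.9% of members with CTCF (17.7% to 38.5%), beside 26.7% of all genes with CTCF, and more than 1 Rad21 peak at 30.3% (20.6% to 42.2%), beside 35.6%. A start of another protein-coding gene on the opposite strand lay within 1 kb at 13 members (16.5%, 9.88% to 26.2%), beside 11.5% of all genes and 20.3% of genes with a CpG-rich start, for example Zwilch at Rpl4 and Vps52 at Rps18.

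Short promoter motifs that the rule did not use were counted. In the 300 bases from 250 before to 50 after the 5′-most start, the ETS family motif CCGGAAG, on either strand, was found at 24 of 79 members (30.4%, 21.3% to 41.2%), beside 11.1% of all promoters. Its share was 19.9% at genes with a CpG-rich start, 36.8% at mitochondrial ribosomal protein genes and 27.5% at proteasome genes. The YY1 motif AAGATGGC was found at 6 (7.59%, 3.53% to 15.6%), beside 3.29% of all promoters, 17.1% at mitochondrial ribosomal protein genes and 12.5% at proteasome genes. The Sp family motif GGGCGG was found at 36 (45.6%, 35.1% to 56.5%), beside 44.3% of all promoters and 76.4% of those with a CpG-rich start. TATAAA between 45 and 15 bases before the start was found at 0 of 79 (upper limit 4.64%), beside 2.55%. The last letters of the ETS motif are the first of the YY1 motif, so a single stretch can match both, and other pairs can also overlap at their ends. A match is a description, not a site.

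A pyrimidine tract of at least 8 bases on the sense strand, within 10 bases of the annotated start, was present at 25 of 79 members (31.6%, 22.5% to 42.6%), beside 13.8% of all genes and 11.8% of genes with a CpG-rich start. It was present at 6 of 18 other translation genes (33.3%) and at 9 of 76 mitochondrial ribosomal protein genes (11.8%). The annotated start decides whether a tract is found.
Rpl32: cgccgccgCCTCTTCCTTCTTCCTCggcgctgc
Rpl22: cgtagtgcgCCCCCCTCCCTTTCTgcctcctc
Rpl14: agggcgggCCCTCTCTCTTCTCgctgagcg
Rpl26: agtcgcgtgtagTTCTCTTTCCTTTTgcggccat
Shown in capitals are 4 of the 6 tracts of at least 14 bases, of 17, 15, 14 and 14 bases. The stretches are chr6:115758744-115758776 on the minus strand, chr4:151699954-151699985 on the plus strand, chr9:120480618-120480647 on the plus strand and chr11:68715077-68715110 on the plus strand. The tract starts 3 bases before the annotated start at Rpl32, 1 base after it at Rpl22, 6 bases before it at Rpl14 and 4 bases after it at Rpl26. These 4 genes differ in CTCF, with 237 fragments at Rpl32, 152 at Rpl22, 153 at Rpl14 and 851 at Rpl26. They had similar Rad21, with 42, 34, 35 and 41 fragments. The others with a tract of at least 14 bases were Rpl4, with 113 CTCF and 46 Rad21 fragments, and Rps25, with 54 and 71.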

How the data were processed

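Pooled peak lists for CTCF (4 libraries) and Rad21 (3 libraries) and a class list of CTCF sites were analysed. The authors pooled all reads of a factor, mapped them to mm9 with Bowtie2, kept unique reads, called peaks with MACS2 and removed blacklisted regions and peaks of duplicates alone. The deposited score is 10 times the −log10 of the q-value, the deposited fold is the ratio of fragments to local background at the summit with a pseudocount of 1, and the deposited −log10 p-value comes from a Poisson model. The class list, of sites found in at least 2 livers, holds the authors' motif score and flags.

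The fragments at each summit were recovered from the fold and the −log10 p (whole within 0.05 at 99.996% of CTCF and 99.997% of Rad21 peaks, and at all peaks of members). The depth of each library is unknown from the lists, which hold no read totals. A peak belonged to a gene if its summit was within 1000 bp of the start of a protein-coding transcript (44018 starts of 21410 genes). The strongest peak by fragments stood for a gene, and peaks sharing at least 1 bp were called overlapping. All 22 chromosome names matched the reference. The CTCF matrix of 19 bases was learnt from the 1500 TAD anchors with most fragments on odd-numbered autosomes, its threshold was exceeded in 5% of windows 2000 bp from the summits of TAD anchors, and it found a match at 93.4% of 2683 TAD anchors on even-numbered ones. CpG-rich starts had an observed over expected CpG ratio of at least 0.6 and at least 50% G+C. Functions were tested on simulated peaks.

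Named genes were the 10 members with most fragments for each factor, anchors, lone CTCF sites, members with Rad21 alone, the nearest peaks of 5 members without peaks, those nearest to the 1 kb limit, and members that share a peak (0 found). Other members, such as those with CTCF alone, a further peak, a summit nearest to a start, a neighbouring gene, a paralogue or a long pyrimidine tract, were named after their values were seen. Single values of 4 members are not reported here, while counts and medians include them. Members, lists and rules were chosen with earlier results of these data known. No test was made, since the lists pool all mice. Versions were pysam 0.24.0, Numba 0.67.0, Matplotlib 3.10.9, pandas 2.3.3, SciPy 1.17.1 and NumPy 2.4.6, under Python 3.11.15.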

Additional observations from a re-analysis of the deposited data

How the results depend on the processing

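No paired analysis was possible because the lists pool the libraries of each factor, and for the same reason no library could be left out. Of 41 alternatives fixed at the start, 36 gave a share inside the 95% interval of the reported one. With peaks of a score of at least 100, Rad21 was present at 62.0% of members, beside 44.4% of all genes. Overlap of CTCF peaks with Rad21 fell to 60.5% with summits within 100 bp, 63.95% with a reciprocal overlap of 50% and 66.7% with both scores at least 100, beside 57.5%, 67.7% and 78.2% at all promoters, so its order against all promoters turned under the last 2. The learnt motif was at 28.6% of class-list sites. The share of members with CTCF stayed between 76.0% and 87.7%. A further 6 alternatives, chosen after seeing the data, concerned the strongest 10% of CTCF (16.4% to 22.2%) and the limit for strong CTCF peaks. There, the median of Rad21 per 100 CTCF fragments was 14.2 from 200 fragments and 10.9 from 500, beside 26.4 and 19.2 at all promoters. Most member peaks hold under 100 fragments over the pooled libraries, and the part of peak strength in these shares was not tested.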
